A study of Mus musculus with 73 samples.

Results

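Microtubule motors and dynactin are described here across 73 single cells of the mouse cochlea. The genes were taken by name: every row of the gene table whose symbol starts with Kif and a number (kinesins), with Dync or Dynl (cytoplasmic dynein) or with Dctn (dynactin). This gave 60 genes of 55291 gene rows, made up of 38 kinesins, 16 dynein genes and 6 dynactin genes. Another 4 rows that fit the letters were left out as pseudogenes or an antisense RNA. The rule goes by symbol and uses no measured value, though it was written with earlier results of these data known. All 60 have an entry in GENCODE vM21, which uses the files' build, mm10.

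The cells form 1 group, labelled Casz1 -/- inner hair cells at postnatal day 14 (P14). The mice carried Atoh1Cre/+ and Casz1flox/flox, and Cre under the control of Atoh1, a gene of developing hair cells, acts in more cell types than inner hair cells. They also carried the reporters Rosa26-CAG-Loxp-stop-Loxp-3xGFP(Ai47) and Rosa26-CAG-Frt-stop-Frt-tdTomato, with Fgf8-Flpo/+ to switch on the red one. Cells were hand-picked if they showed green and red. No animal is named in the labels, and the 73 cells therefore count as 1 sample without replicates: no p-value can be given, and nothing here says what the deletion changed. Wild-type cells were not analysed here.

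Kinesins and cytoplasmic dynein are motors that walk along microtubules and use ATP. Most kinesins carry vesicles, mitochondria or ciliary cargo towards the growing microtubule ends, some move chromosomes in dividing cells, and a few trim microtubule ends. Cytoplasmic dynein-1 carries cargo the opposite way and needs dynactin, a large complex built around a short filament of actin-related protein, to move far. Dynein-2 and kinesin-2 run transport inside cilia. In hair cells, motors of these families serve the ribbon synapse, the kinocilium (the true cilium of the hair bundle) and the planar placement of that bundle.

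Levels are in CPM, that is, counts scaled to a common library total. A gene was called detected in a cell at 10 CPM or more, which takes 110 to 372 counts depending on the library. Libraries held 11027945 to 37183702 counts (median 17333640), with 6954 to 10688 genes having a count (median 8518). All 7 hair cell markers (Myo7a, Myo6, Pou4f3, Tmc1, Cib2, Otof and Slc17a8) were detected in all 73 cells. Casz1 itself was still counted, with 0 to 283 CPM (median 42.1) and detection in 55 cells; the labels do not say which exons were floxed, and the gene is therefore no check of the deletion. Of 55 markers of other cell types, 48 were detected in fewer than 10 cells, and 22 cells had at least 50 CPM of such a rare marker. Library 5 stood apart by immune genes and library 67 by supporting cell genes. Without these 2 libraries, the counts of members given below for detection in at least 37 cells, in all cells, and for correlations past 0.3 and past -0.3 were 28, 7, 3 and 6, the same as with them.

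Most dynein and dynactin genes, but a minority of kinesins, were detected in at least 37 cells, and kinesins of cell division were rare. Of the 60 genes, 28 were detected in at least 37 of the 73 cells. That is 46.7% of the members, beside 17.8% of the 27502 gene rows with a count. The sets are not alike. The 60 members are all protein-coding and include 5 with no count. The 27502 rows leave out genes without a count but take in pseudogenes and antisense RNAs. Another 22 members were detected in 1 to 36 cells, and 10 in no cell. By class, at least 37 cells held 9 of 38 kinesins, 13 of 16 dynein genes and 6 of 6 dynactin genes. Most of the 28 were therefore dynein and dynactin genes. A cell had a median of 28 members detected (range 21 to 33), namely 11 kinesins, 12 dynein genes and 5 dynactin genes at the median. Together the members took a median of 0.523% of a cell's counts (range 0.383% to 0.745%). Detection in 0 of 73 cells refers to 10 CPM, with an exact 95% upper limit of 4.93% for the share of cells at that level (counting error only). It does not limit the share of cells that hold lower levels, and Kif26b, for one, had counts under 10 CPM in 3 cells.

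**Figure D1:**
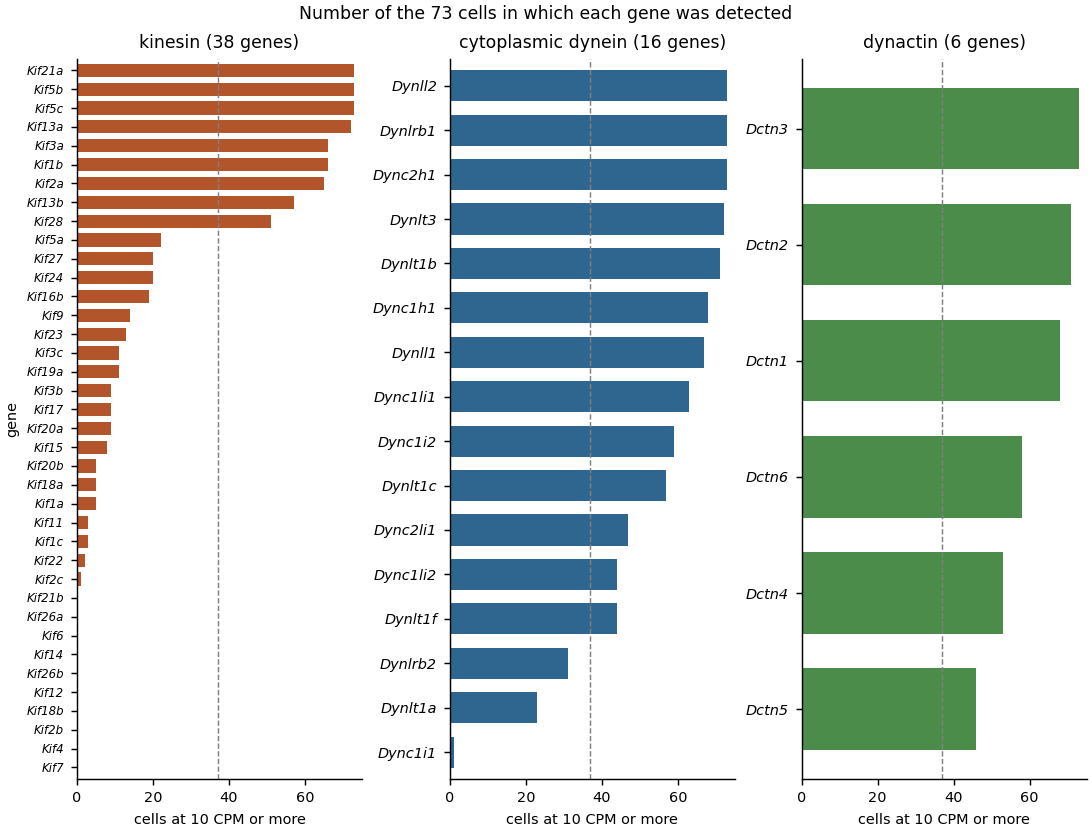
Number of the 73 cells (horizontal axis) with at least 10 CPM of each of the 60 genes (1 bar per gene), in panels for 38 kinesins, 16 cytoplasmic dynein genes and 6 dynactin genes; the dashed line stands at 37 cells. All 6 dynactin bars and 13 dynein bars pass the line, against 9 kinesin bars, and 10 kinesins have no bar.

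In all 73 cells, 7 members were detected, which is 11.7% of the members, beside 2.27% of gene rows with a count. These shares again come from unlike sets. The 7 members were Dctn3 of dynactin, the dynein genes Dynll2, Dynlrb1 and Dync2h1, and the kinesins Kif21a, Kif5b and Kif5c. Levels of different genes can be compared only per length, here as mean CPM per kb of merged exons. On that scale the highest member was Dctn3 at 526 CPM per kb, followed by the dynein light chain genes Dynlrb1 (273), Dynll2 (167), Dynlt3 (145) and Dynlt1b (87.5). The highest kinesins were Kif21a (67.2 CPM per kb), Kif5b (52.6) and Kif3a (44.9), each below those 5 small subunits. The dynein motor subunit itself, Dync1h1, stood at 7.72 CPM per kb.

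**Figure D2:**
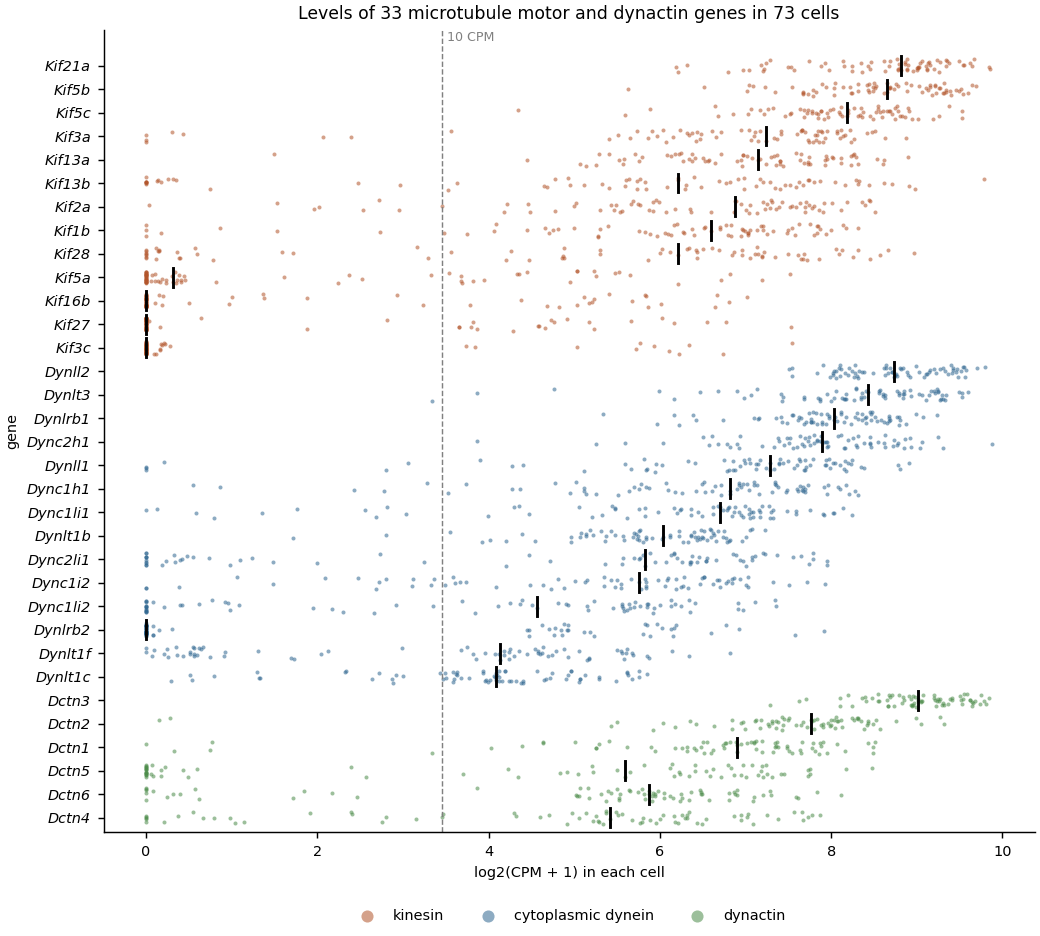
Level of each of the 33 members with a mean of at least 10 CPM, as log2(CPM + 1) in each of the 73 cells (horizontal axis, 1 dot per cell) by gene (vertical axis), coloured by class; black bars are medians and the dashed line is 10 CPM. Dctn3, Dynll2, Kif21a and Kif5b lie wholly to the right of the line, whereas Dynlrb2, Kif16b, Kif27 and Kif3c have most cells to its left and medians of 0 CPM.

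Cytoplasmic dynein-1 is built from a motor heavy chain, intermediate chains, light intermediate chains and 3 kinds of light chain. Dync1h1, the heavy chain gene on chromosome 12 (110601452 to 110666945, plus strand), had 0.457 CPM in its lowest cell, a median of 112 and 317 in its highest. It was detected in 68 cells, and 5 cells lay under 10 CPM. Its rank correlation with Slc26a5 over cells was -0.06 (this measure is explained below).

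For the intermediate chains, which connect dynein to dynactin, the cells used 1 of the 2 genes. Dync1i2 ranged from 0 to 243 CPM (median 53.1) and was detected in 59 cells (80.8%, exact 95% interval 69.9% to 89.1%, counting error only). Dync1i1, the form best known from neurons, was detected in 1 cell at 25.4 CPM. Dync1i2 was the higher of the pair per kb in all 71 cells with any read of either.

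Light intermediate chains bind the adaptors that hook dynein to cargo. Dync1li1 ranged from 0 to 303 CPM (median 103, 63 cells), and Dync1li2 from 0 to 163 CPM (median 22.8, 44 cells). Both were detected in 37 cells, Dync1li1 alone in 26, Dync1li2 alone in 7 and neither in 3. Per kb, Dync1li1 was the higher of the pair in 64 cells and Dync1li2 in 9, so the lead of Dync1li1 was common but not general.

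The light chains of the LC8 kind, which hold many protein pairs together beside their place in dynein, were led by Dynll2. Dynll2 ranged from 181 to 888 CPM (median 426) over 73 cells, and Dynll1 from 0 to 481 CPM (median 155) with detection in 67. Per kb, Dynll2 made up a median of 81.1% of the pair and was the higher in 71 cells, and Dynll1 made up 18.9%. With the longest transcript in place of merged exons, the median for Dynll2 was 73.2%.

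Among the roadblock light chains, Dynlrb1 was general and Dynlrb2 was not. Dynlrb1 ranged from 39.4 to 600 CPM (median 262), and was detected in every cell. Dynlrb2 reached 241 CPM but had a median of 0, and was detected in 31 cells (42.5%, exact interval 30.97% to 54.6%). Since Dynlrb1 was in every cell, no cell could have Dynlrb2 alone. Dynlrb2 was the higher of the 2 per kb in 3 cells.

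Among the single rows of Tctex light chains, Dynlt3 had the highest median, with 9.14 to 773 CPM (median 344) and detection in 72 cells. Dynlt1b ranged from 2.29 to 149 CPM (median 64.6, 71 cells), Dynlt1c from 0.229 to 56.7 CPM (median 16.03, 57 cells) and Dynlt1f from 0 to 111 CPM (median 16.5, 44 cells). Dynlt1a was detected in 23 cells at up to 52.1 CPM. Per kb, with each row taken singly, Dynlt3 was the highest of the 5 in 57 cells, Dynlt1b in 14 and Dynlt1f in 2. These 4 Dynlt1 genes lie in 1 region of chromosome 17 (6306340 to 6655900), and how reads divide between them is uncertain. Their coding sequences have 342 bases and were compared in the GENCODE vM21 transcripts: those of Dynlt1a, Dynlt1c and Dynlt1f were identical, and that of Dynlt1b differed from them at 1 base. The substitution is C21A, from Dynlt1c to Dynlt1b, counted from the A of the start codon. The first 120 coding bases of both are shown because they contain the base, in capitals, that tells them apart.
Dynlt1c: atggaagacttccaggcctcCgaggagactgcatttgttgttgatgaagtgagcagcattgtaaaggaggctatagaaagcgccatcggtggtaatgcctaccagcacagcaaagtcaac
Dynlt1b: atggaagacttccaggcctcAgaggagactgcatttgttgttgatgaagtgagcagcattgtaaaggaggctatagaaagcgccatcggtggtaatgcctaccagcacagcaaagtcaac
A processed pseudogene on chromosome 6, Dynlt1-ps1, is identical to Dynlt1c over all 342 bases. It was counted in all 73 cells at 11.3 to 226 CPM (median 96.4), and its rank correlation over cells was 0.78 with Dynlt1b and 0.61 with Dynlt1c. The 4 gene rows summed gave 15.4 to 245 CPM (median 115), and 204.8 CPM at the median with the pseudogene row. How the authors counted reads that match several places is not stated, so the sum is the safer value and the split between rows is not. The lead of Dynlt3 per kb rests on that split, and the sum was not set against Dynlt3 per kb.

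At least 1 gene of each of the 6 kinds of dynein-1 subunit was detected in 53 cells (72.6%, exact interval 60.9% to 82.4%). LC8, roadblock and Tctex genes were each found in all 73 cells, light intermediate chain genes in 70, the heavy chain in 68 and intermediate chain genes in 59. The kinds missing at 10 CPM were therefore the large and middle subunits and never a light chain. These shares are limits set by the threshold and by sampling of molecules in single cells.

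Dynactin activates dynein-1, and its 6 Dctn genes ran from general to patchy. Dctn3, a small subunit of the arm that joins the other parts, had 154.5 to 920 CPM (median 517) and was detected in all cells. Dctn2, called dynamitin, of the same arm, had 0.114 to 638 CPM (median 217) and was detected in 71. Dctn1, the subunit that binds both microtubules and dynein, had 0 to 363 CPM (median 119) and was detected in 68. All 3 of these arm genes were therefore found in most cells.

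The pointed-end subunits of dynactin, which help select cargo adaptors, were less regular. Dctn6 had 0 to 276 CPM (median 57.4, 58 cells). Dctn4 had 0 to 233 CPM (median 41.6, 53 cells). Dctn5 had 0 to 355 CPM (median 47.2, 46 cells), the lowest detection of the 6. A stretch of 11.8% of the Dctn6 exons overlaps Gm26768 on the other strand, and strand use in counting is not stated. All 6 Dctn genes were detected in 21 cells, 5 of them in 38, 4 in 11 and 3 in 3. Among the other parts of the complex, Actr10 was detected in 70 cells, Capzb in 73, and Actr1a or Actr1b, which form the filament, in 63. Dync1h1, Dctn1 and Dctn2 were detected together in 61 cells.

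Dynein-2, the motor that returns material from the tip of cilia, was present through both of its member genes. Dync2h1, its heavy chain, had 13.6 to 942 CPM (median 236) and was detected in all 73 cells. Dync2li1, its light intermediate chain, had 0 to 247 CPM (median 55.9) and was detected in 47 cells. Per kb, Dync2h1 stood at a mean of 16.7 CPM, against 7.72 CPM for Dync1h1. Of 14 genes of intraflagellar transport, 8 were detected in at least 37 cells, beside 17.8% of gene rows with a count. Ift20 was detected in 73 cells and Ift74 in 70. Genes of motile cilia were rare, with Foxj1 detected in 12 cells and Dnah5 in 0.

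Kinesin-1, the general carrier of vesicles and mitochondria, was present as Kif5b and Kif5c side by side. Kif5b, the widespread form, had 48.3 to 823 CPM (median 401), and Kif5c, a form abundant in neurons, had 19.2 to 736 CPM (median 291). Both were detected in all 73 cells. Kif5a, the form most restricted to neurons, reached 183 CPM with a median of 0.241, and was detected in 22 cells (30.1%, exact interval 19.94% to 42.001%). Of the neuron markers, Nefl and Nefm were detected in 70 and 64 cells, whereas Prph, Gap43, Stmn2, Thy1 and Elavl4 were detected in 0.

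The mixture of Kif5b and Kif5c differed between cells. Per kb, Kif5b made up a median of 55.5% of kinesin-1 (range 16.1% to 92.2%) and Kif5c 43.8% (7.72% to 83.8%). Kif5b was the higher in 45 cells and Kif5c in 28. With the longest transcript as length, Kif5b led in 53 cells, with a median of 61.3%. Across cells the levels of the 2 genes had a rank correlation of -0.098. Kinesin light chains, which link kinesin-1 to cargo, were read less evenly: Klc1 was detected in 53 cells, Klc4 in 27, Klc3 in 20 and Klc2 in 6, and 12 cells had none of the 4.

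Kinesin-2 drives material into cilia as a trimer of Kif3a, either Kif3b or Kif3c, and the linker Kifap3. Kif3a had 0 to 470 CPM (median 151) and was detected in 66 cells (90.4%, exact interval 81.2% to 96.1%). Kifap3 had 279 to 2368 CPM (median 1075) and was detected in all 73. The second motor subunit was seldom seen, with Kif3b detected in 9 cells and Kif3c in 11, at medians of 0 CPM and maxima of 129 and 185 CPM. Of the 66 cells with Kif3a, 8 also had Kif3b, 11 had Kif3c and 47 had neither. Kif3c overlaps 1110002L01Rik on the other strand over 35.3% of its exons. Kif17, a kinesin-2 that works without Kif3a, was detected in 9 cells.

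Kinesin-3 motors carry synaptic and endosomal vesicles. Of these, 4 of 8 were detected in at least 37 cells, beside 17.8% of gene rows with a count. Kif13a, a carrier of recycling endosomes, had 1.82 to 476 CPM (median 141) and was detected in 72 cells. Kif1b, which moves synaptic vesicle precursors and mitochondria, had 0 to 316 CPM (median 96.2, 66 cells). Its relatives Kif1a, a main carrier of synaptic vesicle precursors in neurons, and Kif1c were detected in 5 and 3 cells. Kif1b was thus the highest of the 3 per kb in 66 of the 71 cells with any read of them.

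Kif13b and Kif28, also of kinesin-3, were the members with the most uneven levels. Kif13b had 0 to 879 CPM (median 73.2) and was detected in 57 cells. Kif28 had 0 to 500 CPM (median 73.2) and was detected in 51. When the spread between cells was set against the trend for genes of the same mean level, Kif13b stood at percentile 98.0 and Kif28 at percentile 94.5 of all genes compared. The dynein-1 genes stood low on that scale, at a median percentile of 15.2, and dynactin genes at 28.3. Of Kif28 exons, 4.36% overlap Ahctf1 on the same strand.

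Kif21a, a kinesin-4 that restrains microtubule growth at the cell edge, was the only kinesin-4 found in most cells. It had 72.03 to 924 CPM (median 450) and was detected in all 73. Its sister gene Kif21b was detected in 0 cells, with a maximum of 3.57 CPM. Kif27, a kinesin-4 tied to motile cilia in mice, reached 184 CPM with a median of 0 and was detected in 20 cells, and Kif7 and Kif4 had no count at all. Kif2a, a kinesin-13 that takes microtubule ends apart, had 0.0269 to 363 CPM (median 116, 65 cells). It shares 19.2% of its exons with Dimt1 on the other strand, and reads of the 2 genes there cannot be told apart without strand.

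Mitotic kinesins were rare. None of the 11 was detected in at least 37 cells, beside 17.8% of gene rows with a count. Kif23, a motor of the midzone of dividing cells, had the widest detection of them, in 13 cells at up to 72.3 CPM, and Kif4 and Kif18b had no count. Of the 73 cells, 38 had at least 1 of the 11, and no cell more than 3. Summed, the 11 reached 0 to 161 CPM (median 10.5). Of 8 genes of cycling cells, none was detected in more than 5 cells. For Kif20a, detected in 9 cells, 29.3% of the exons overlap Cdc23 on the other strand.

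The remaining kinesins were seen in few cells. Kif24, a centriolar kinesin-13 that restrains cilia, was detected in 20 cells at up to 96.8 CPM, and Kif16b, an endosome motor of kinesin-3, in 19 at up to 129 CPM. Kif9 was detected in 14 cells and Kif19a, a motor that limits the length of motile cilia in mice, in 11. Of the mitotic kinesins besides Kif23 and Kif20a, Kif15 was detected in 8 cells, Kif20b and Kif18a in 5 each, Kif11 in 3, Kif22 in 2 and Kif2c in 1. Counts under 10 CPM in every cell were all that was found for Kif21b, Kif26a, Kif26b, Kif6 and Kif14, and Kif12, Kif2b, Kif4, Kif7 and Kif18b had no count.

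High levels did not gather in 1 library. The highest cell of each of the 33 members with a mean of 10 CPM or more came from many libraries. Library 38 held 4 of these maxima, for Kif5c, Dync2h1, Dynll1 and Kif28, and no other library held more than 2. Library 38 had 21344427 counts and 8402 genes with a count, near the median for genes.

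Slc26a5, the gene of the outer hair cell motor prestin, was counted in these cells from 0 to 1229 CPM (median 73.1, 51 cells detected). Each member was set against it by Spearman rank correlation over the 73 cells. The cells share depth, dissociation and animals that the labels do not name, so the correlations describe these libraries and carry no p-value. Of the 60 members, 33 had a mean of 10 CPM or more and were compared, and the other 27 were too low. The same was done for all 8618 genes that pass this filter.

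The members' median correlation lay close to that of all genes, with more members than background at the negative end. Of the 33, 15 had a positive and 18 a negative correlation, with a median of -0.034, beside -0.030 for all genes compared. Negative values made up 54.5% of the members and 56.7% of all genes. Correlations of 0.3 or higher were found for 3 members, which is 9.09%, beside 6.17% of all genes. Correlations of -0.3 or lower were found for 6 members, which is 18.2%, beside 6.8% of all genes. At 0.5 or higher there was no member (1.35% of all genes), and at -0.5 or lower there was 1 (0.87% of all genes).

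**Figure D3:**
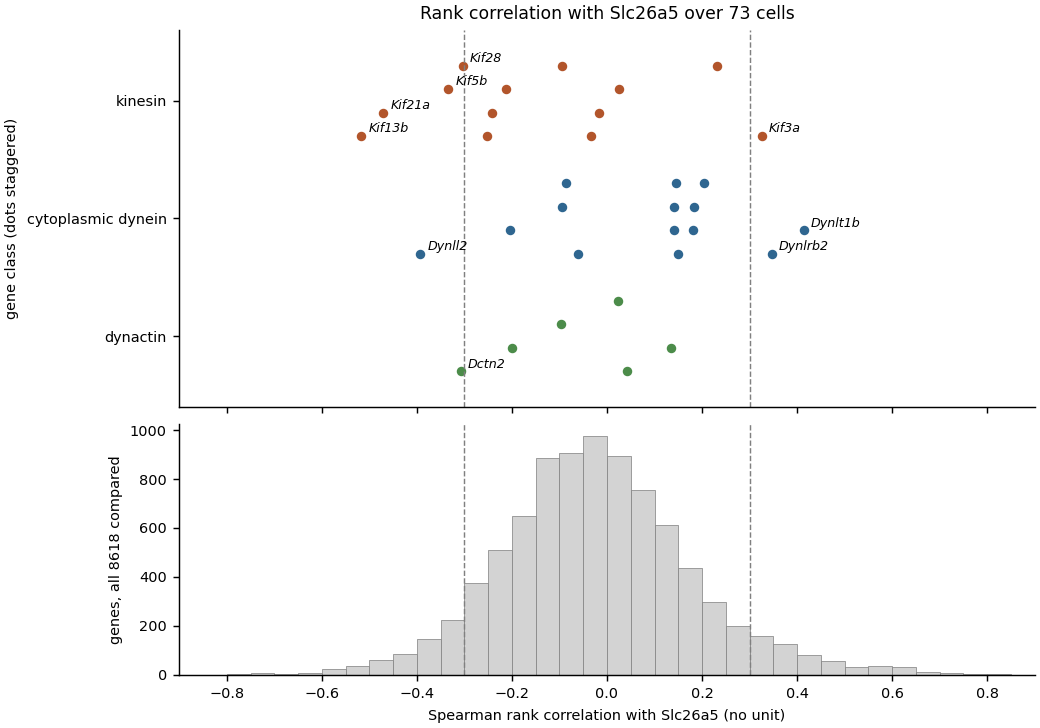
Spearman rank correlation with Slc26a5 over 73 cells (horizontal axis) for 33 members (upper panel, 1 dot per gene, by class, staggered for legibility) and for all 8618 genes compared (lower panel, number of genes per bin); dashed lines stand at -0.3 and 0.3. Kinesin dots lie mostly left of 0 (10 of 13), dynein dots mostly right of it (9 of 14), and dynactin dots on both sides (3 of 6 each way), while 56.7% of all genes lie left of 0.

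The negative end held 4 kinesins, 1 dynein light chain and 1 dynactin gene. Kif13b had the lowest correlation at -0.52, followed by Kif21a at -0.47, Dynll2 at -0.39, Kif5b at -0.33, Dctn2 at -0.31 and Kif28 at -0.30. The value of Dctn2 depended on the measure: the Pearson correlation of log2(CPM + 1) was -0.02. The 2 cells under 10 CPM of Dctn2 had Slc26a5 at 0 and 3.47 CPM, and their part in this difference was not tested. For Kif13b, the 16 cells under 10 CPM all had Slc26a5 at 19.6 CPM or more, and all 22 cells with Slc26a5 under 10 CPM had Kif13b detected. Kif21a, Dynll2 and Kif5b were detected in every cell, so their correlations come from graded levels. Just inside the limit lay Kif28 and just outside it Kif2a at -0.25 and Kif1b at -0.24. All 5 kinesin-3 genes compared were negative, with a median of -0.24, and so were all 3 of kinesin-1, beside 56.7% of all genes.

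The positive end held 2 dynein light chains and 1 kinesin. Dynlt1b had the highest correlation at 0.41, followed by Dynlrb2 at 0.35 and Kif3a at 0.33. Next came Kif27 at 0.23, Dynlt1f at 0.20 and Dync2h1 at 0.18, all under the limit. Of the 31 cells with Dynlrb2 detected, 26 also had Slc26a5 detected. The same held for 25 of the 42 cells without Dynlrb2, in which Slc26a5 reached 884 CPM. Over all 73 cells, Slc26a5 was detected in 51. The summed Dynlt1 rows gave 0.42, and 0.40 with the pseudogene, close to the value of Dynlt1b alone. Both dynein-2 genes and both kinesin-2 genes compared had positive values (0.15 and 0.18, 0.33 and 0.03). Of all genes compared, 56.7% were negative, and nothing is read from counts this small. Kifap3, the linker of kinesin-2, had -0.16.

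**Figure D4:**
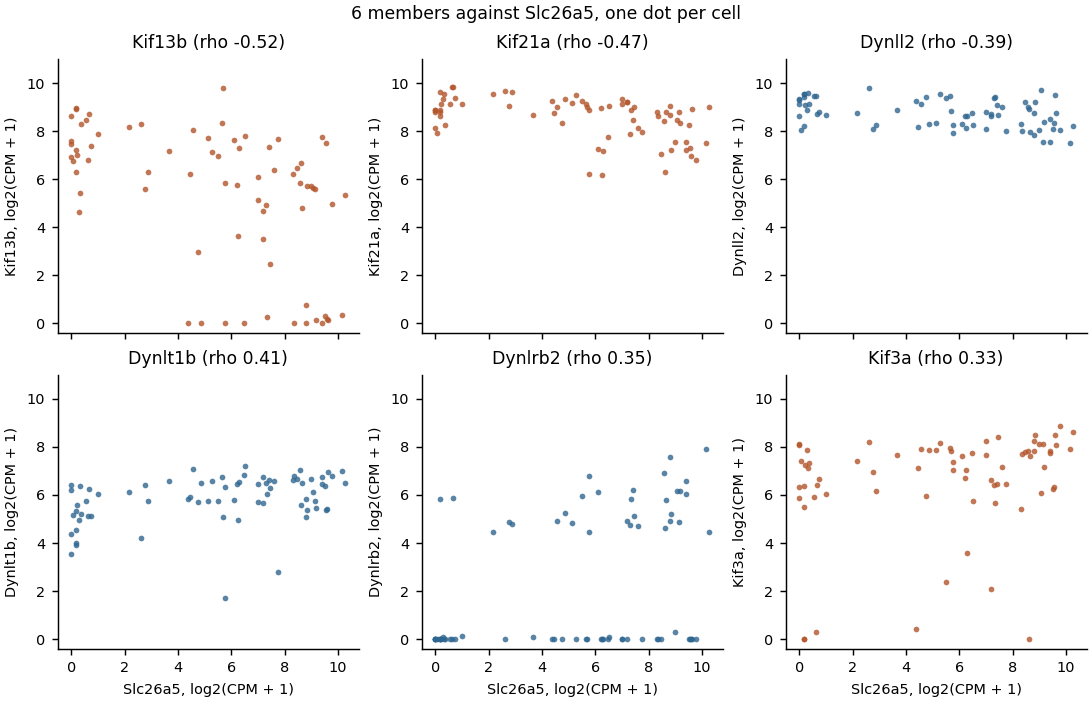
Level of 6 members, as log2(CPM + 1) (vertical axes), against Slc26a5 on the same scale (horizontal axes), 1 dot per cell, for the 3 lowest correlations in the upper row and the 3 highest in the lower row. Cells without Kif13b lie on the right, at 19.6 CPM of Slc26a5 or more, whereas Dynll2 and Kif21a stay detected throughout and shift downwards.

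Summed by class, the kinesin level had a negative correlation with Slc26a5 and the dynein level one near 0; the difference was not tested. The summed kinesin level ranged from 917 to 3222 CPM (median 2090) and had a rank correlation of -0.55 with Slc26a5. Dynein genes summed to 1266 to 3331 CPM (median 2058) with a correlation of -0.015, and dynactin genes to 652 to 1774 CPM (median 1098) with -0.22. The kinesin value depended on 3 genes, chosen here after their values were seen. Without Kif21a it was -0.48, and without Kif21a, Kif5b and Kif13b it was -0.17.

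Other properties of the libraries moved with Slc26a5 as well. It correlated at -0.49 with the mitochondrial share, at 0.67 with the ribosomal protein share, at 0.27 with the total count, at -0.30 with the number of genes and at 0.31 with the library number in the labels. With ranks corrected for each of these 5 in turn, Kif21a kept -0.39 to -0.49 and Kif13b -0.25 to -0.49, the weakest with the ribosomal share. Dynll2 kept -0.35 to -0.43 and Kif5b -0.24 to -0.32. On the positive side, Dynlt1b kept 0.23 to 0.37, Dynlrb2 0.24 to 0.36 and Kif3a 0.21 to 0.34. Dctn2 had -0.22 to -0.35 and Kif28 -0.14 to -0.31. Summed glial markers had a correlation of 0.53 with Slc26a5, at 0 to 498 CPM (median 45.5), and 0 of its 8 markers was detected in at least 37 cells: Sox10 was in 27 and Cnp in 29, Mal and Fabp7 in 1 each, and Mbp and Pmp22 in 0. Kif21a and Kif13b had correlations of -0.44 and -0.35 with that glial sum. Other marker sums past 0.3 were those of neurons at 0.31 (4.20 to 1446 CPM, median 252), endothelium at -0.32 (0 to 90.5 CPM, median 0) and the 7 hair cell markers at -0.50 (5922 to 15794 CPM, median 11396). At least 37 cells held 2 of the 10 neuron markers and 0 of the 4 endothelial markers, with Cdh5 and Kdr in 0 cells. The part of these marker genes in the results was not tested. In the 51 cells with no rare marker of another type at 50 CPM, Kif21a had -0.55, Kif13b -0.52, Dctn2 -0.40 and Kif5b -0.33, while Dynll2 at -0.29 and Kif28 at -0.26 no longer passed -0.3. Kif2a had -0.08 there, and Dynlt3 passed the limit narrowly at -0.30. At the positive end, Dynlt1b had 0.46, Kif3a 0.37 and Dynlrb2 0.34, and Dynlrb1 passed the limit at 0.32.

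Other hair cell genes were set against the same members, which were picked by their correlations with Slc26a5. Ocm, a second gene abundant in outer hair cells, had correlations of 0.43 with Dynlt1b, 0.44 with Dynlrb2 and 0.35 with Kif3a, and of -0.44 with Dynll2, -0.33 with Kif13b and -0.22 with Kif21a. Atp2a3, a calcium pump gene of inner hair cells, had -0.41 with Dynlt1b, -0.31 with Dynlrb2 and -0.14 with Kif3a. It had 0.46 with Kif13b, 0.39 with Dynll2 and 0.27 with Kif21a. Tbx2, a transcription factor of inner hair cells, had 0.39 with Kif13b, 0.33 with Kif21a and 0.32 with Dynll2. It had -0.32 with Kif3a, -0.28 with Dynlt1b and -0.22 with Dynlrb2. Otof had 0.36 with Kif13b, 0.27 with Kif21a and -0.006 with Dynll2, and -0.33 with Dynlt1b, -0.19 with Kif3a and -0.07 with Dynlrb2. Slc17a8 had 0.37 with Kif21a, 0.14 with Dynll2 and 0.11 with Kif13b, and -0.27 with Dynlrb2, -0.14 with Dynlt1b and -0.12 with Kif3a. Gata3 had 0.35 with Kif13b, 0.29 with Dynll2 and 0.23 with Kif21a, and -0.31 with Kif3a, -0.18 with Dynlt1b and -0.12 with Dynlrb2. Casz1, as far as it was still counted, had 0.28 with Kif13b, -0.06 with Kif21a and -0.23 with Dynll2. It had 0.12 with Kif3a, -0.15 with Dynlt1b and -0.18 with Dynlrb2. Since all these genes are read in the same cells, these values are not independent of each other.

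Partners of the motors were counted from lists drawn up by function. Of 20 dynein regulators and adaptors, 14 were found in 37 cells or more, beside 17.8% of gene rows with a count. Of the 17 compared, 1 had a correlation of 0.3 or higher and 3 of -0.3 or lower, beside 6.17% and 6.8% of all genes, and nothing is read from counts this small. Those were Bicdl1 (0.44), which joins dynein to secretory vesicles, and Hook3 (-0.40), Hook1 (-0.34) and Rab11fip3 (-0.30), adaptors of endosomes. Of 14 kinesin adaptors, all compared, Trak2 (0.36) and Mapk8ip1 (0.31) were at the positive end and Mapk8ip3 (-0.44) and Rhot1 (-0.31) at the negative. Of 12 tubulins, the tracks themselves, 6 were detected in at least 37 cells, beside the same 17.8%. Of the 7 tubulins compared, only Tuba1a at 0.31 and Tuba8 at -0.45 passed 0.3 or -0.3. The correlations past these limits among kinesin adaptors and tubulins also stand beside 6.17% and 6.8% of all genes. Nothing is read from them either. The 14 genes of intraflagellar transport had a median of -0.10, with 5 positive and 9 negative, close to the 56.7% of all genes that were negative.

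Subunits of 1 complex had pairwise correlations near 0 over cells. The median pairwise rank correlation was 0.015 within dynein-1 (66 pairs), 0.0045 within dynactin (15 pairs), -0.012 between dynein-1 and dynactin (72 pairs) and 0.023 among kinesins (78 pairs). Over all pairs of genes with such a mean the median was 0.0044. A correlation of 0.3 or higher was seen for 8 of the 528 member pairs, which is 1.52%, beside 0.999% of all gene pairs. The highest was Dynlt1c with Dynlt1f at 0.57, a pair with identical coding sequence. It was followed by Dync1li2 with Kif13a at 0.41, Dynlt1f with Dync2h1 at 0.37, Dynlt3 with Kif21a at 0.36, Kif28 with Kif13b at 0.31 and Kif5b with Kif21a at 0.31. The lowest was Dync2li1 with Kif13b at -0.33. Sampling error in single cells limits such correlations, and low values do not show that subunits are made independently.

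**Figure D5:**
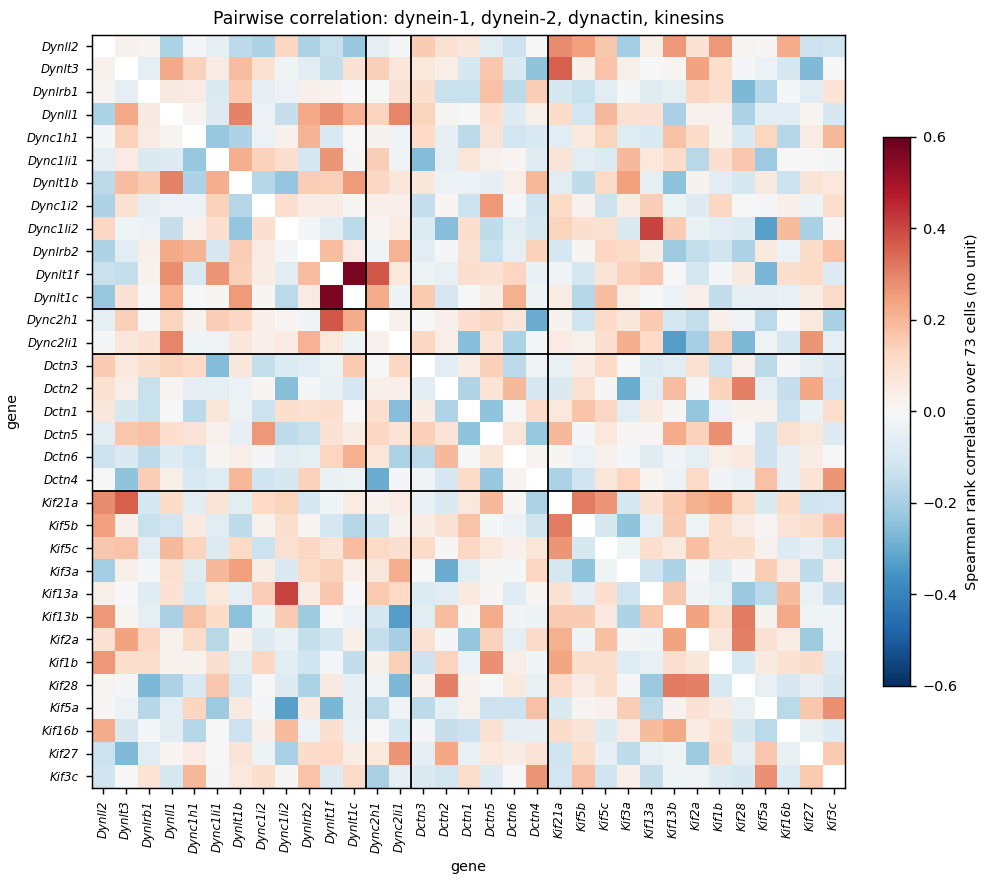
Spearman rank correlation over 73 cells for each pair of the 33 members compared (colour scale from -0.6 to 0.6), in blocks of dynein-1, dynein-2, dynactin and kinesins split by black lines. The blocks show no darker squares along the diagonal, apart from Dynlt1c with Dynlt1f at 0.57.

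Promoters were looked at because Dynlrb2, whose kind of light chain also serves dynein-2, and Kif3a stood together at the positive end. RefSeq windows of 300 bases (250 before and 50 after the start, GRCm38.p6) were matched for 46 of the 60 members. Dynlt1b, and Kif13b, Dynll2, Kif5b and Kif28 of the 6 members at the negative end, were not matched, so the ends cannot be set against each other. The half-site of the X-box, the motif bound by RFX factors of ciliary genes, was searched as GTTGCC on both strands, and was in 15 of the 46 (32.6%), beside 12.6% of 27025 promoters. The longer form GTTGCCNNGCAAC, which contains the half-site, was in 2 of the 46, Dynlrb2 and Kif17 (4.35%), beside 0.148% of all promoters. Of the 3 members at 0.3 or higher, Dynlrb2 and Kif3a had windows, and both hold the half-site, printed in capitals as the longer form in Dynlrb2 (chr8:116504765-116505064, plus strand) and as the half-site in Kif3a (chr11:53567119-53567418, plus strand).
Dynlrb2: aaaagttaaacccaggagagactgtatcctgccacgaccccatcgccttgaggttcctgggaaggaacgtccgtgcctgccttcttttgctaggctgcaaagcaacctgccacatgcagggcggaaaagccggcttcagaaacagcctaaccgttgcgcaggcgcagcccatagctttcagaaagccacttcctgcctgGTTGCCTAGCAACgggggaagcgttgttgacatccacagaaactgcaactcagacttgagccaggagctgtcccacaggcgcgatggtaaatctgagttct
Kif3a: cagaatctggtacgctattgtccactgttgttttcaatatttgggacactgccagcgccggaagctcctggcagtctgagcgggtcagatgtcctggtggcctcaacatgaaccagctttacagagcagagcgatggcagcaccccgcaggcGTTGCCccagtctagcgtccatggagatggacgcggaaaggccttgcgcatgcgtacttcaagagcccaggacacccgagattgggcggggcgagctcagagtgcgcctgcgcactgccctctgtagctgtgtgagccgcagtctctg
Among members compared, the half-site was also in the windows of Dync2h1, Dync1i2, Dynll1, Kif2a, Kif16b and Kif3c, whose correlations with Slc26a5 ranged from -0.25 to 0.18. Kif21a and Dctn2, the members at the negative end with windows, did not hold the half-site. A match of letters is a description of the sequence and not a measured binding site.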

How the data were processed

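RNA of 73 hand-picked cells was made into full-length cDNA with the Smart-Seq HT kit and tagmented, per the labels' protocols. HISAT2 2.2.1, StringTie 2.2.1, featureCounts 2.0.1 and the build mm10 are named, per the submitters' processing notes; their settings, strand use and treatment of multi-mapped reads are not given in the sources used here. Values are raw counts as the authors deposited them, in 1 table of genes by cells; without molecular identifiers they include PCR copies. The row of the reporter element WPRE (0.0161% of counts) was left out. Here counts were divided by library totals to give CPM. Rank correlations used genes averaging at least 10 CPM, and corrected values used residuals of ranks. Exact 95% Clopper-Pearson intervals cover counting error only. Spread between cells was set against a lowess trend (span 0.3). Gene positions, exon lengths and coding sequences are from GENCODE vM21, promoters from RefSeq.

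The design has 1 group, so no test was made. Members, lists and thresholds were chosen with earlier results of these data known. Full values are given for dynein-1, dynactin, kinesin-1 and kinesin-2 members with a mean of 10 CPM or more, the 20 members of highest mean and the 6 highest and 6 lowest correlations. Some markers of the glial list are not reported here by name. The correlation step was tested on simulated data. Alternatives were another detection limit, scaling, filter, correction or set of cells. Tools were scipy 1.17.1, statsmodels 0.14.6, pandas 2.3.3 and numpy 2.4.6 under Python 3.11.15, with matplotlib 3.10.9.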

Additional observations from a re-analysis of the deposited data

How the results depend on the processing

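No paired analysis was possible because the cells form 1 group and no test was made. At 50 CPM, 3 members in place of 7 were detected in all 73 cells. The 3 correlations of 0.3 or higher became 0 with ranks corrected for the mitochondrial share and 0 with the ribosomal protein share. The 6 of -0.3 or lower became 2 with the ribosomal protein share. The shares of all genes past these limits were not recomputed with corrected ranks, so the corrected counts have no background beside them. The correlation of the summed kinesin level, -0.55, was -0.39 with the ribosomal protein share corrected and -0.17 without Kif21a, Kif5b and Kif13b. Corrections for the library number and all alternatives of the summed level were chosen after seeing the data. The cause of these shifts was not tested. Other alternatives kept the detection and correlation counts within 1.5 times. Of 331 alternative values for the 33 single correlations, 299 moved by less than 0.1, 32 by more, and none of those past 0.3 changed sign. Dctn2 had -0.02 by Pearson correlation of log2(CPM + 1) in place of -0.31, and Dynll2 had -0.29 in the 51 cells without a rare marker. Without mitochondrial genes in the total, the median level of all genes compared shifted by 0.11 on the log2 scale, and with median-of-ratios size factors by -0.18. Depth limits detection: 10 CPM is 110 to 372 counts.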
